A study of Mus musculus with 18 samples.

Results

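Genes of the cell cycle were examined as 1 group, to see in which RNA fraction of the hippocampus a proliferation program appeared 14 days after kainic acid (KA). The group held 38 genes, chosen by symbol as widely used markers of dividing cells, and all 38 were present in the count and FPKM tables of the 18 libraries, which list 55291 gene symbols. By role they comprised 2 general markers of proliferating cells, 2 genes of G1 entry, 7 of DNA replication, 3 of nucleotide supply, 9 mitotic cyclins and kinases, 5 of the centromere and the chromosomal passenger complex, 8 of the spindle and cytokinesis, and 2 partners of the anaphase-promoting complex (APC/C).

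The libraries came from male C57BL/6J mice that had received the RiboTag vector AAV-DJ-GfaABC1D-EGFP-Rpl10a in CA3 of the right hippocampus at 6 weeks of age. The vector places a GFP tag on the ribosomes of transduced cells under an astrocyte promoter. It was carried by all 3 groups. The KA group received 50 nL of 20 mM KA, a glutamate receptor agonist, in the right dentate gyrus, given 2 weeks after the vector, and its hippocampi were taken 14 days after KA. The AAV control group received the vector alone, and its hippocampi were taken 2 weeks later. It thus had no second injection and a shorter time after the vector than the KA group. In comparisons with AAV control, KA cannot be told apart from these differences. The PBS group received PBS after the AAV, and its time of collection is not stated in the sources used here. Each group had 3 samples, and each sample pooled the right hippocampi of 3 to 4 mice. Every homogenate gave an input library of total RNA and an immunoprecipitated (IP) library of RNA on tagged ribosomes, so the IP is enriched for transduced cells and the input covers all hippocampal cells.

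A cell that enters the cycle first raises D-type cyclins, which switch on the kinases that free E2F factors, and E2F then drives the genes of DNA synthesis. In G2 and mitosis a second wave follows, with the kinase Cdk1, its A- and B-type cyclins, the spindle motors and the passenger complex, and APC/C ends it by degrading the cyclins. In the adult hippocampus most cells are quiescent. Dividing cells include progenitors of the dentate gyrus and oligodendrocyte precursors, and after injury microglia and some astrocytes can divide as well. A D-type cyclin can be expressed in cells that do not go on to divide.

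The library totals lay between 7991681 and 16032180 counts. The summed counts of 8 astrocyte markers per library size (CPM, with TMM normalization) were 16550 to 41040 in the IP libraries. In the input libraries they were 2801 to 5732. The higher level in IP fits the label of that fraction, for these markers only. Markers of other cell types are given below with the comparison of IP and input. KA #3 and AAV control #3, which formed run 2, stood apart from #1 and #2 of their groups, which formed run 1. Between #1 and #2 of these groups the counts differed by 4.48 to 9.59 times counting noise per gene, and between #3 and either of them by 39.6 to 109 times. The PBS libraries, all of 1 run, differed by 55.6 to 81.2 times in IP and by 7.22 to 19.8 times in input. Large differences in IP thus occurred within a run as well. Results that rest on 1 library are given with and without it. The PBS libraries formed run 3 alone, so run and group cannot be told apart in any comparison with PBS.

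Genes that act late in the cycle often share short elements near their start sites, so the sequences before the starts of 4 members are shown. Cdk1, Top2a and Birc5 are the members that rose in KA input against both control groups, and Mcm3 is the 1 member called in the test of whether the KA difference was the same in IP and input with AAV control as the baseline. Each line gives the 250 bases before the RefSeq start on GRCm38.p6, 5′ to 3′ on the strand of the gene. Capitals mark matches, on either strand, to the cell cycle genes homology region (CHR, TTTGAA), to the CCAAT box that NF-Y binds (CCAAT) and to an E2F element (TTGGCGC). The windows lie at chr10:69352913-69353162 (minus strand) for Cdk1, chr11:99024190-99024439 (minus strand) for Top2a, chr11:117848987-117849236 (plus strand) for Birc5 and chr1:20820313-20820562 (minus strand) for Mcm3.
Cdk1: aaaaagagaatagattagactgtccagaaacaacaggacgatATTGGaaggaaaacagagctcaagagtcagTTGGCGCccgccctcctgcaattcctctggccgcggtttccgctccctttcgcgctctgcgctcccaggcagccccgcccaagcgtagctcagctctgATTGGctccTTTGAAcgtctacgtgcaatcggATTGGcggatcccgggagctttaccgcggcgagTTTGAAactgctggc
Top2a: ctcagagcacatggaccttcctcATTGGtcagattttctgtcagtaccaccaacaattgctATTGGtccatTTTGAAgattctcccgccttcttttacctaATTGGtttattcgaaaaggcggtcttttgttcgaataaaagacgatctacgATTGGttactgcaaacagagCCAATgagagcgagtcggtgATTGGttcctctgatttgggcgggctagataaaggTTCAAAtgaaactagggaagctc
Birc5: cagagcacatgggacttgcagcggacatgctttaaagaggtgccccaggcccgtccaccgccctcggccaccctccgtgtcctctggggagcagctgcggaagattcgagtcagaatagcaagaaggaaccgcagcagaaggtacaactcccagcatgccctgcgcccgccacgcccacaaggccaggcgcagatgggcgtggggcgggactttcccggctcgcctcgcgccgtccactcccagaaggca
Mcm3: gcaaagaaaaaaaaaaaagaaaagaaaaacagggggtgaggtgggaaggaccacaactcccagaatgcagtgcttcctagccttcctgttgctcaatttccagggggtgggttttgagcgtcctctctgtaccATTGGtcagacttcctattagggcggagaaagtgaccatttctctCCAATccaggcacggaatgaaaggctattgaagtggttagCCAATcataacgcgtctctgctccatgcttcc

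The Cdk1 sequence held 2 CHR matches, 3 CCAAT matches and 1 E2F match, and the Top2a sequence held 2 CHR and 6 CCAAT matches. The Mcm3 sequence held 3 CCAAT matches, and these letters were not found in the Birc5 sequence. RefSeq windows of 300 bases, 250 before and 50 after the start, were at hand for 32 of the 38 members, and Ccnd1, Mcm4, Ccna2, Aurkb, Kif20a and Tpx2 had none. A CCAAT match was present in 28 of the 32 members (87.5%) and in 41.1% of all 27025 genes with a window. A CHR match was present in 18 members (56.2%) and in 20.2% of all genes, and the E2F element in 8 members (25%) and in 2.85% of all genes. The E2F element fell in 4 of 6 replication genes with a window and in 4 members of other roles, while CHR matches fell in 5 of 7 mitotic cyclins and kinases and in 5 of 6 spindle and cytokinesis genes. The letters of the 3 motifs can overlap one another, and a match is not evidence of binding.

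**Figure D1:**
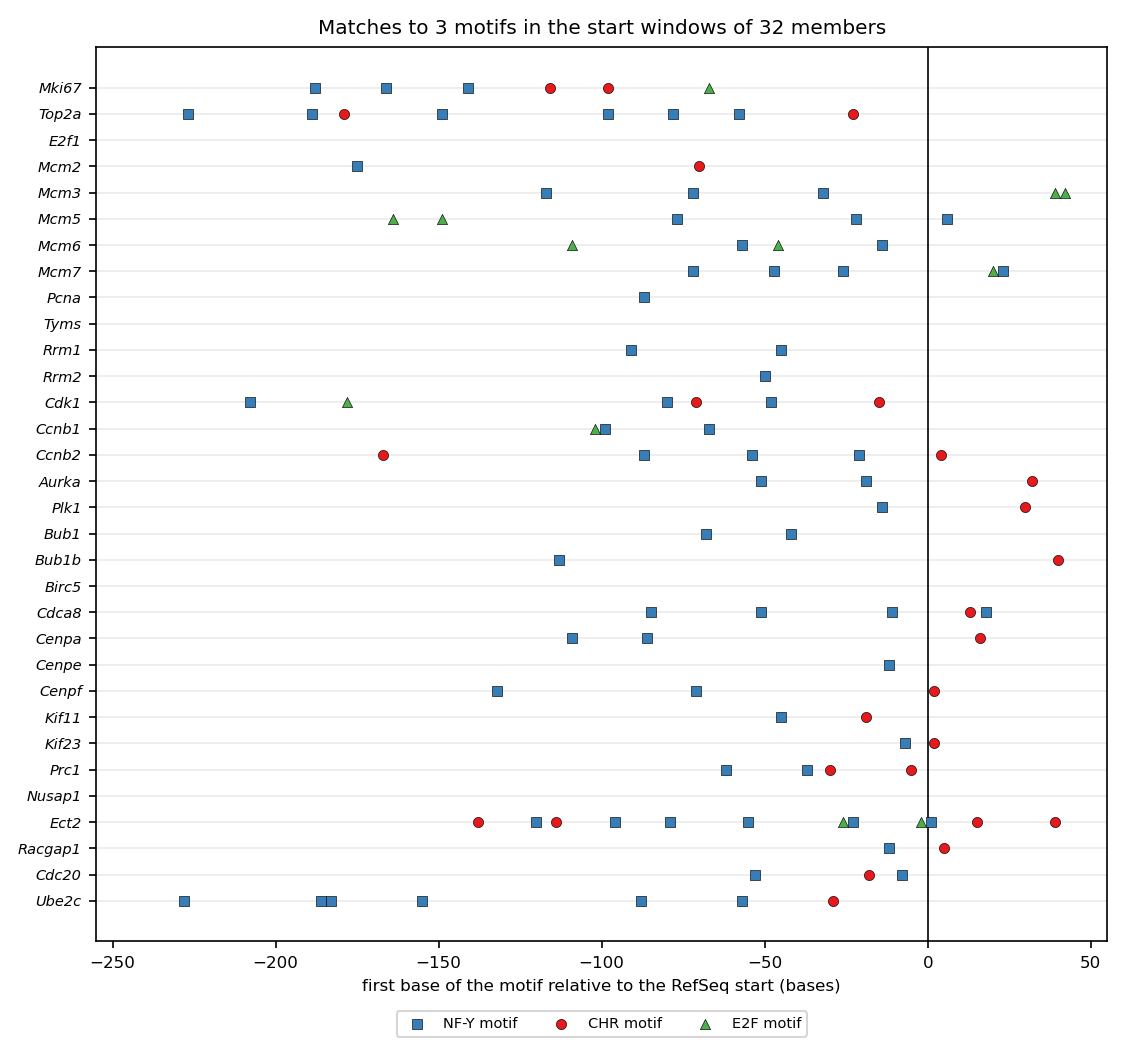
Positions of matches to the CHR, NF-Y (CCAAT) and E2F motifs in the start windows of the 32 members with a RefSeq window. The x axis gives the first base of each match relative to the RefSeq start in bases, each row is 1 gene, and squares stand for NF-Y, circles for CHR and triangles for E2F matches. Squares occur in 28 rows.

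Most members were expressed at a low level. FPKM, which divides counts by library size and gene length and so allows genes to be compared, was under 1 in all 18 libraries for 24 of the 38 members and above 1 in all 18 for Ccnd1, E2f1, Mcm7 and Pcna. In every group Pcna, the sliding clamp of DNA polymerase, had the highest mean FPKM, from 12.9 in PBS IP to 19.5 in AAV control IP. Cyclin D1 (Ccnd1) was second in 5 of 6 groups, and Mcm4 was second in PBS IP. The median member had a mean FPKM of 0.557 in KA input, 0.327 in AAV control input and 0.3 in PBS input. In IP these medians were 0.39, 0.392 and 0.401. The median member had a mean of 24 counts in KA input and 13.5 in AAV control input. Mean counts were under 10 in all 6 groups for Aurkb, Bub1, Ccnb1 and Ect2, and in at least 1 group for 17 members in all. For 6 members (Aurkb, Bub1, Ccnb1, Cdc20, Kif23 and Plk1) at least 1 library had 0 counts, and a count of 0 allows a true mean of up to 3. At such counts a missing call does not show that a member was unchanged.

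In input, a small set of S-phase and mitotic genes rose in the KA group. Against AAV control, 36 members had a mean of at least 5 counts and were tested, and 3 of them rose at an adjusted p under 0.05 and at least 2-fold (edgeR's quasi-likelihood test). These 3 were Cdk1, the kinase that starts mitosis, Top2a, the topoisomerase that untangles replicated chromosomes, and Birc5, the survivin subunit of the passenger complex. That is 8.33% of the tested members, against 4.31% of all genes tested. Of the tested members 30 had a positive log2 fold change and 6 a negative one. The median was 0.4, and it was −0.03 over all genes. At an unadjusted p under 0.05 there were 9 members, and all 9 were higher in KA. Against PBS, 7 of 34 tested members rose (20.6%, against 7.86% of all genes), namely the same 3 genes and Mcm3, Cenpf, Racgap1 and Ube2c. The median log2 fold change was 0.49, and it was 0.00384 over all genes. These 7 calls became 3 without KA #1 (Cdk1, Cenpf and Racgap1), 4 without PBS #1 and 4 without PBS #3, and Cdk1 was called without any single library.

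Cdk1 had 1.03, 0.723 and 0.954 FPKM in KA input #1 to #3. In AAV control input it had 0.381, 0.0212 and 0.0967 FPKM, and in PBS input 0.101, 0.0565 and 0.199. All 3 KA libraries lay above all 6 control libraries, and the control level rested on 1 to 15 counts per library. For Cdk1 the log2 fold change was 2.52 (SE 0.63, adjusted p = 0.0486 from edgeR) against AAV control and 2.89 (SE 0.41, adjusted p = 0.000248) against PBS. Within run 1, which held 2 KA and 2 AAV control samples, it was 2.21 (adjusted p = 0.0013).

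Top2a had 0.551, 0.338 and 0.283 FPKM in KA input, 0.111, 0.116 and 0.159 in AAV control input, and 0.0883, 0.206 and 0.109 in PBS input. The KA libraries were again above all controls, with KA #1 the highest. Top2a differed by a log2 fold change of 1.53 (SE 0.38, adjusted p = 0.0495 from edgeR) against AAV control, 1.95 (adjusted p = 0.000664) within run 1, and 1.48 (SE 0.4, adjusted p = 0.0159) against PBS.

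Birc5 had 1.64, 0.864 and 1.01 FPKM in KA input, 0.515, 0.4 and 0.327 in AAV control input, and 0.205, 0.519 and 0.665 in PBS input. No control library reached the lowest KA library. For Birc5 the log2 fold change was 1.5 (SE 0.36, adjusted p = 0.0398 from edgeR) against AAV control, 1.46 (adjusted p = 0.00482) within run 1, and 1.31 (SE 0.39, adjusted p = 0.0246) against PBS.

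The calls against AAV control lay close to the threshold. They numbered 0 without any 1 of KA #1, KA #2, KA #3 or AAV control #2, when the log2 fold changes of Cdk1, Top2a and Birc5 remained above 1, 1 (Cdk1) without AAV control #1, and 6 without AAV control #3. These 6 were Birc5, Cdk1, Cenpf, Mcm3, Top2a and Ube2c, and within run 1 alone 7 members rose. The share of all genes called in these fits is not given here, so the counts of 6 and 7 are not read as results about the members. With KA and AAV control numbers taken as pairs, Mcm3 joined the 3 called genes.

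Ube2c, the ubiquitin-conjugating enzyme of APC/C, had 1.17, 0.848 and 0.528 FPKM in KA input and 0.144, 0.161 and 0.367 in AAV control input. In PBS input it had 0.115, 0.25 and 0.416 FPKM. Its KA libraries did not overlap the controls. Ube2c differed by a log2 fold change of 1.78 (SE 0.52, adjusted p = 0.087 from edgeR) against AAV control, which did not pass, and 1.65 (SE 0.48, adjusted p = 0.0224) against PBS.

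Mcm3, a subunit of the replicative helicase, had 1.35, 0.811 and 0.993 FPKM in KA input, 0.601, 0.363 and 0.381 in AAV control input, and 0.239, 0.57 and 0.314 in PBS input. All KA values were above all control values. For Mcm3 the log2 fold change was 1.23 (SE 0.34, adjusted p = 0.0701 from edgeR) against AAV control and 1.44 (SE 0.37, adjusted p = 0.0123) against PBS.

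Cenpf, a kinetochore protein of G2 and mitosis, had 0.289, 0.238 and 0.343 FPKM in KA input and 0.142, 0.132 and 0.134 in PBS input. In AAV control input it had 0.13, 0.0747 and 0.268 FPKM, so AAV control #3 lay within the KA range. Against PBS it rose by a log2 fold change of 1.06 (SE 0.29, adjusted p = 0.0176 from edgeR).

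Racgap1, a subunit of the centralspindlin complex of cytokinesis, had 0.659, 0.845 and 0.623 FPKM in KA input, 0.477, 0.488 and 0.584 in AAV control input, and 0.239, 0.328 and 0.403 in PBS input. The KA libraries were above both control groups. Racgap1 differed by a log2 fold change of 1.1 (SE 0.27, adjusted p = 0.00959 from edgeR) against PBS and 0.42 (SE 0.26, adjusted p = 0.444) against AAV control.

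Mki67, the most used marker of cycling cells, did not share this pattern. It had 0.322, 0.365 and 0.283 FPKM in KA input, 0.286, 0.354 and 0.198 in AAV control input, and 0.267, 0.305 and 0.215 in PBS input, and the 3 groups overlapped. Its log2 fold change was 0.22 against AAV control, with a 95% confidence interval from −0.44 to 0.88, and 0.25 against PBS, with an interval from −0.38 to 0.88. Changes of 2-fold or more lie outside both intervals.

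Pcna had 19.9, 16.3 and 14.3 FPKM in KA input, 12.7, 14.7 and 16.4 in AAV control input and 11.9, 15.7 and 15.5 in PBS input. The 3 groups overlapped, and the log2 fold change against AAV control was 0.17 (95% confidence interval −0.25 to 0.59).

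The roles are described here by their sums, without a test between them. The summed level of the 9 mitotic cyclins and kinases was 11 to 12.9 TMM-normalized CPM in the KA input libraries, 5.24 to 7.28 in AAV control input and 4.11 to 5.45 in PBS input, with no overlap. The 5 centromere and passenger genes summed to 14.8 to 20.7, 9.45 to 12.6 and 8.31 to 10.7 CPM in this order, and the 8 spindle and cytokinesis genes to 13.1 to 14.8, 9.93 to 11 and 8.49 to 11 CPM. Those of the 7 replication genes overlapped, at 56.4 to 69 in KA input, 49.8 to 66.9 in AAV control input and 49.6 to 61.2 in PBS input. Single genes weighed heavily in these sums. Pcna had 350 to 472 counts in the KA input libraries, and no other replication gene exceeded 77 there. Cdk1 had 34 to 50 counts in KA input and 1 to 15 in AAV control input. No other mitotic cyclin or kinase exceeded 24 in these libraries. The sums therefore do not describe every gene of a role alike. Of the 7 tested mitotic cyclins and kinases, 7 had a positive log2 fold change against AAV control, with a median of 0.52, as had 5 of 7 replication genes, with a median of 0.17. For 12 of the 36 tested members every KA input library lay above every AAV control input library, which is 33.3%, against 14.4% of all genes tested. No tested member had every KA input library below, against 9.62% of all genes. Against PBS the KA input libraries lay above for 13 of 34 members (38.2%, against 19.9% of all genes) and below for 0 (against 14.8%).

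**Figure D2:**
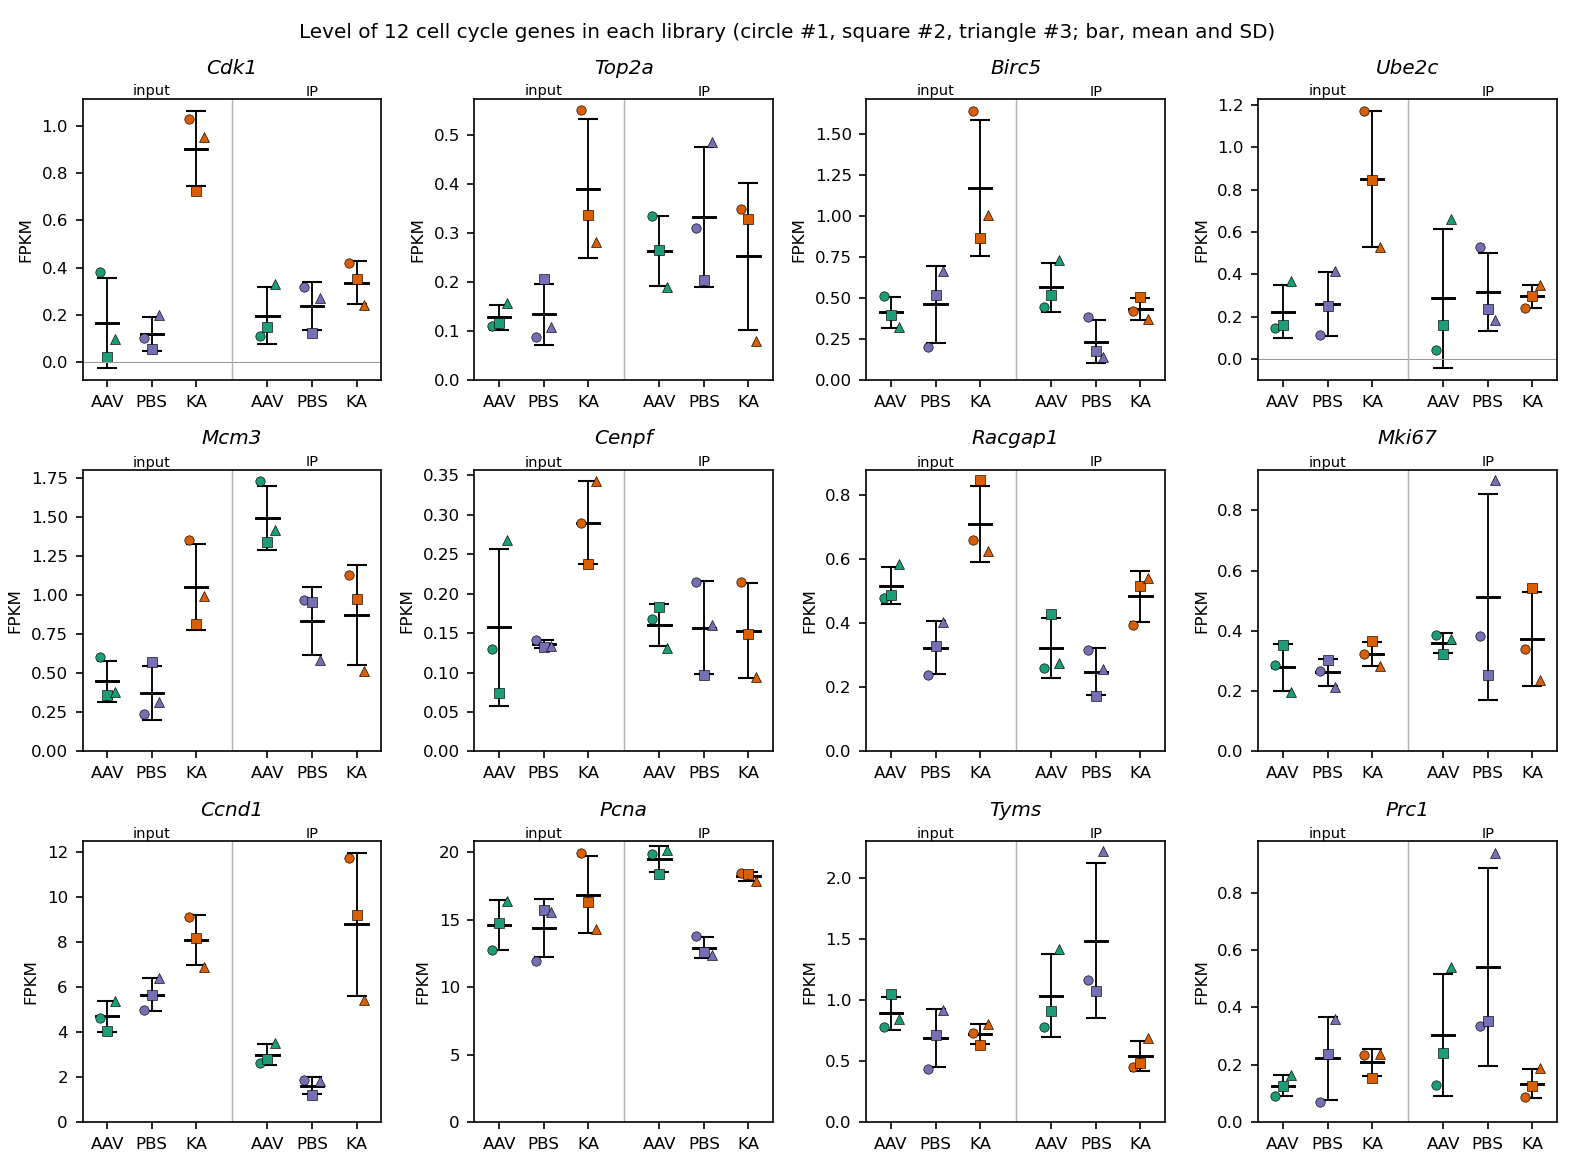
FPKM of 12 members in each library, with the AAV control, PBS and KA groups side by side in input (left of each panel) and IP (right). Circles, squares and triangles are samples #1, #2 and #3, and bars give the mean and SD of 3 samples; Cdk1 in KA input lies between 0.723 and 1.03 FPKM, above all 6 control input libraries, and Ccnd1 is the member whose KA IP libraries lie above both IP control groups.

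In the IP fraction, a single member rose against AAV control among 34 tested. It was cyclin D1 (Ccnd1), the cyclin that activates Cdk4 and Cdk6 in G1. That is 2.94% of the tested members, against 7.45% of all genes that rose. No member fell, against 4.84% of all genes, in the edgeR test, in DESeq2 and in limma voom, and none was lower at an unadjusted p under 0.05. The median log2 fold change was 0.05, and it was −0.04 over all genes. The KA libraries lay above all AAV control libraries for 1 member (2.94%, against 14.9% of all genes) and below for Mcm3, Rrm1 and Tyms (8.82%, against 22.5%). Against PBS, 36 members were tested. Ccnd1 and Racgap1 rose, against 10.8% of all genes, and Tyms, Plk1 and Prc1 fell, against 14.2% of all genes. The KA libraries lay above all PBS libraries for 4 members (11.1%, against 16.7% of all genes) and below for 5 (13.9%, against 30.6%). In bulk RNA, a change in the number of cells that express a gene and a change in RNA per cell cannot be told apart.

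Ccnd1 had 11.7, 9.2 and 5.44 FPKM in KA IP #1 to #3, 2.66, 2.8 and 3.53 in AAV control IP, and 1.88, 1.21 and 1.82 in PBS IP. Each of the 3 KA libraries was above all 6 controls, on 281 to 616 counts in KA and 65 to 213 in the controls. Ccnd1 differed by a log2 fold change of 1.65 (SE 0.27, adjusted p = 0.00448 from edgeR) against AAV control, 2.06 (adjusted p = 3.62e-07) within run 1, and 2.62 (SE 0.25, adjusted p = 3.62e-06) against PBS. It was called without any single library, with log2 fold changes from 1.43 to 1.85 against AAV control and from 2.4 to 2.82 against PBS. In input Ccnd1 had 9.13, 8.2 and 6.91 FPKM in KA, 4.65, 4.05 and 5.4 in AAV control and 4.97, 5.66 and 6.39 in PBS. This input difference had an adjusted p under 0.05 but was less than 2-fold, with a log2 fold change of 0.75 (SE 0.19, adjusted p = 0.0484 from edgeR) against AAV control and 0.47 (SE 0.11, adjusted p = 0.00815) against PBS. Ccnd1 overlaps Lto1 on the opposite strand, and the library kit does not mark strand, so reads of the overlap cannot be assigned.

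The genes that rose in input had the following values in IP. Cdk1 had 0.419, 0.35 and 0.24 FPKM in KA IP, 0.109, 0.148 and 0.332 in AAV control IP, and 0.316, 0.124 and 0.27 in PBS IP. The groups overlapped, and the log2 fold change against AAV control was 0.83 (95% confidence interval −0.38 to 2.03). Cdk1 was called in IP without AAV control #3 and within run 1, which leave the same 2 AAV control libraries. Top2a had 0.349, 0.33 and 0.081 FPKM in KA IP, 0.335, 0.267 and 0.191 in AAV control IP, and 0.312, 0.204 and 0.486 in PBS IP, with a log2 fold change against AAV control of 0.05 (interval −1.07 to 1.17). Birc5 had 0.422, 0.508 and 0.375 FPKM in KA IP, 0.444, 0.523 and 0.734 in AAV control IP and 0.385, 0.18 and 0.14 in PBS IP, with a log2 fold change against AAV control of −0.28 (interval −1.19 to 0.64). The intervals of Cdk1 and Top2a against AAV control include a 2-fold rise, and that of Birc5 does not. Against PBS, Birc5 had a log2 fold change of 1.02 in IP, with an interval from −0.13 to 2.17, which includes one.

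Ube2c had 0.242, 0.295 and 0.351 FPKM in KA IP, 0.0415, 0.161 and 0.661 in AAV control IP and 0.528, 0.236 and 0.183 in PBS IP, an overlap in which AAV control #3 was the highest library. Mcm3 had 1.12, 0.972 and 0.511 FPKM in KA IP, 1.73, 1.34 and 1.42 in AAV control IP, and 0.965, 0.957 and 0.584 in PBS IP. All KA values of Mcm3 were below all AAV control values, and the log2 fold change of −0.67 (SE 0.31, adjusted p = 0.177 from edgeR) was not called. Cenpf had 0.215, 0.149 and 0.0946 FPKM in KA IP, 0.168, 0.183 and 0.132 in AAV control IP, and 0.214, 0.0964 and 0.161 in PBS IP, and its groups overlapped.

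Racgap1 had 0.393, 0.515 and 0.541 FPKM in KA IP, 0.259, 0.428 and 0.276 in AAV control IP, and 0.317, 0.173 and 0.256 in PBS IP. KA was above PBS in every library and overlapped AAV control. For Racgap1 the log2 fold change was 1.17 (SE 0.38, adjusted p = 0.0272 from edgeR) against PBS and 0.74 (SE 0.35, adjusted p = 0.177) against AAV control. Mki67 had 0.339, 0.544 and 0.236 FPKM in KA IP, 0.386, 0.322 and 0.372 in AAV control IP, and 0.385, 0.252 and 0.899 in PBS IP. PBS IP #3 was the highest of all 18 libraries. It also had the lowest astrocyte marker sum of the IP libraries, 16550 CPM, with 33130 and 41040 in PBS IP #1 and #2. The part of this in its values was not tested. Pcna had 18.4, 18.4 and 17.8 FPKM in KA IP, 19.9, 18.4 and 20.2 in AAV control IP, and 13.8, 12.6 and 12.4 in PBS IP. It was higher in KA IP than in PBS IP by a log2 fold change of 0.69 (SE 0.2, adjusted p = 0.0144 from edgeR), under 2-fold, and by 0.04 (95% confidence interval −0.35 to 0.42) than in AAV control IP.

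The 3 members that fell in IP against PBS were Tyms, the thymidylate synthase, Plk1, a kinase of mitotic entry, and Prc1, a crosslinker of the central spindle. Tyms had 0.457, 0.489 and 0.689 FPKM in KA IP, 0.779, 0.91 and 1.42 in AAV control IP, and 1.17, 1.08 and 2.22 in PBS IP. Its KA libraries were below both control groups. Prc1 had 0.0874, 0.128 and 0.189 FPKM in KA IP, 0.131, 0.242 and 0.541 in AAV control IP and 0.334, 0.351 and 0.938 in PBS IP. Plk1 had 4, 0 and 3 counts in KA IP, 1, 2 and 13 in AAV control IP and 20, 9 and 15 in PBS IP. The log2 fold changes against PBS were −1.17 (SE 0.31, adjusted p = 0.00978 from edgeR) for Tyms, −1.68 (SE 0.46, adjusted p = 0.0113) for Prc1 and −2.14 (SE 0.75, adjusted p = 0.0371) for Plk1. Without PBS #3, which had the highest Tyms and Prc1 of its group, only Ccnd1 was called against PBS in IP. Without PBS #2 or KA #2, 3 members were called.

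In input these 3 genes had overlapping groups. Tyms had 0.733, 0.638 and 0.805 FPKM in KA input, 0.781, 1.05 and 0.849 in AAV control input, and 0.441, 0.717 and 0.92 in PBS input. Prc1 had 0.234, 0.153 and 0.239 FPKM in KA input, 0.0913, 0.127 and 0.164 in AAV control input and 0.0726, 0.237 and 0.359 in PBS input. Plk1 had 12, 10 and 7 counts in KA input, 9, 4 and 10 in AAV control input and 9, 5 and 5 in PBS input.

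No member was called between the 2 control groups. Between PBS and AAV control, edgeR called 0 of 34 tested members in input and 0 of 37 in IP, against 0% of all genes in input and 0.0162% higher and 0% lower in IP. DESeq2 and limma voom also called 0. At an unadjusted p under 0.05 there was 1 member in input and there were 4 in IP, all lower in PBS. Every PBS library lay above every AAV control library for 0 members, against 4.57% of all genes in input and 7.71% in IP. Below lay 1 member in input, Racgap1 (2.94%, against 6.2% of all genes), and 6 in IP (16.2%, against 5.48%). Without AAV control #3, 1 member was called in each fraction, Kif23 in input and Plk1 in IP.

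**Figure D3:**
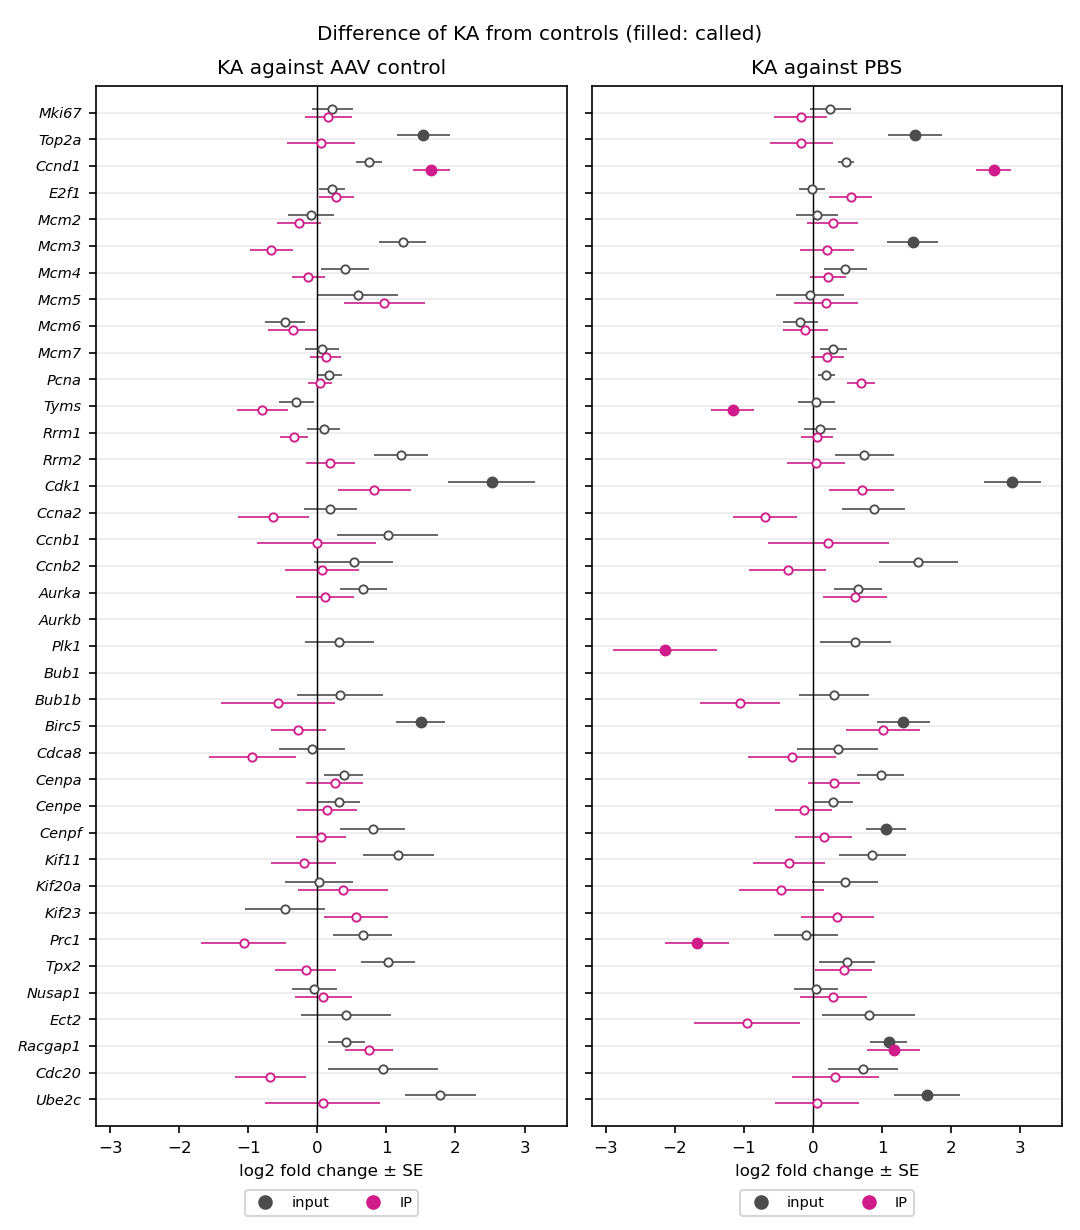
Log2 fold change of KA against AAV control (left) and against PBS (right) for the 38 members, in input (grey) and IP (pink), with SE bars from 3 samples against 3. Filled points passed an adjusted p under 0.05 and at least 2-fold, and members without a point were not tested; in input the points of 30 of 36 tested members lie to the right of 0 against AAV control, and in IP those of 19 of 34.

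Whether the KA difference was not the same in IP and input was tested directly as an interaction. With AAV control as the baseline, the interaction was negative for 27 of the 36 tested members, with a median of −0.53 against −0.05 over all genes. No member was called with a larger KA difference in IP, against 3.9% of all genes, in edgeR, DESeq2 or limma voom, and 1 was at an unadjusted p under 0.05. A single member was called in the other direction, Mcm3, with an interaction of −1.89 (SE 0.45, adjusted p = 0.0211 from edgeR), against 2.55% of all genes called in this direction. With the homogenate as a block, since IP and input of 1 number share it, Birc5 was called too. Birc5 otherwise had −1.76 (SE 0.51, adjusted p = 0.0517). Mcm3 was called within run 1, a setting chosen after seeing the data, with −1.63 (adjusted p = 0.0231), and without AAV control #3, but not without any 1 of the other 5 samples, where its value lay between −2.13 and −1.67. With PBS as the baseline, 28 of 36 were negative, with a median of −0.68 against −0.13 over all genes. Ccnd1 had an interaction of 2.14 (SE 0.28, adjusted p = 9.7e-05), that is, a larger KA difference in IP, against 5.69% of all genes called in this direction. Cdk1 (−2.19, SE 0.61, adjusted p = 0.0209), Plk1 (−2.75, SE 0.9, adjusted p = 0.0407) and Tyms (−1.22, SE 0.41, adjusted p = 0.0476) had a smaller or opposite difference in IP, against 7.27% of all genes. The block raised these 4 calls to 7, adding Ccnb2, Prc1 and Top2a. Of the 4, Ccnd1 was called without any single sample, whereas Cdk1 was lost without any 1 of KA #1, KA #2, KA #3 or PBS #1. The calls numbered 1 without KA #1 or KA #2, 2 without any 1 of the PBS samples and 3 without KA #3.

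The 2 interactions share their KA libraries and differ in the control libraries of both fractions. Mcm3 had a mean of 1.49 ± 0.205 FPKM (SD, n = 3) in AAV control IP and 0.835 ± 0.218 in PBS IP.

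IP and input were also compared within each condition. The main fit had no term for the homogenate that IP and input of 1 number share, and fits with it as a block are given below. With TMM normalization, 27 of 37 tested members had a positive log2 fold change of IP against input in the AAV control group, with a median log2 fold change of 0.46, as were 25 of 35 in the PBS group (0.39) and 11 of 35 in the KA group (−0.18). Over all genes these medians were −0.01, 0.09 and 0.01. Taken from FPKM, which is not corrected for library composition, the ratio of means was above 1 for 26, 27 and 7 of the 38 members in this order. The median log2 ratio over all genes was lower in FPKM than in TMM-normalized CPM, by 0.156 in AAV control and 0.311 in KA. FPKM ratios of the KA group are thus low for all genes. Some marker lists differed between AAV control, PBS and KA, given in this order as median log2 fold changes. The 8 astrocyte markers had 3.28, 2.9 and 2.21, and 8 microglial markers −2.35, −2.02 and −3.27. The 5 neuronal markers had −2.58, −2.2 and −0.86, and 5 myelin markers −0.34, −0.83 and 1.45. In KA all 5 myelin markers were called higher in IP, against 8.29% of all genes. The part of this in the members' values was not tested.

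In the AAV control group Mcm3, Mcm4, Rrm1 and Rrm2 were called higher in IP (10.8% of the tested members, against 12.8% of all genes). Rrm1 and Rrm2 encode the ribonucleotide reductase subunits that make deoxynucleotides. The FPKM ratios of IP to input in pairs #1 to #3 were 2.87, 3.69 and 3.71 for Mcm3 and 1.85, 2.16 and 2.95 for Mcm4. For Rrm1 they were 2.39, 2.11 and 1.63, and for Rrm2 2.21, 1.42 and 3.56. The ratios were above 1 in every pair. With the homogenate as a block, 7 members were called, the same 4 and Prc1, Top2a and Tpx2. Without #1 or #2, Mcm3 alone was called.

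In the PBS group 6 members were higher in IP (Top2a, Mcm3, Tyms, Ccna2, Kif23 and Prc1; 17.1%, against 16.5% of all genes) and Ccnd1 and E2f1 were lower (5.71%, against 12.6%). Ccnd1 had ratios of 0.379, 0.213 and 0.285 in the PBS pairs and 0.571, 0.691 and 0.654 in the AAV control pairs, and thus was on the input side in all 6 control pairs. Kif23 had 14, 9 and 28 counts in PBS IP and 4, 0 and 0 in PBS input. With the homogenate as a block, Ccnb2 and Mcm4 were called higher too, which made 10 calls. Without #1, 2 members were higher in IP and 3 lower, and without #3 there were 4 and 1.

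In the KA group no member was called higher in IP, against 8.29% of all genes, by edgeR, DESeq2 or limma voom, and 4 were higher at an unadjusted p under 0.05. Cdk1 and Birc5 were called lower in IP (5.71%, against 7.71% of all genes). With the homogenate as a block these 2 were called and Kif23 was called higher in IP. Cdk1 had ratios of 0.407, 0.484 and 0.252 in the KA pairs, with a log2 fold change of −1.11 (SE 0.31, adjusted p = 0.0216 from edgeR). In the AAV control pairs its ratios were 0.287, 6.99 and 3.44, and the second of these rests on 1 count in input. Birc5 had ratios of 0.258, 0.588 and 0.372 in the KA pairs (log2 fold change −1.11, SE 0.34, adjusted p = 0.0348 from edgeR) and 0.861, 1.31 and 2.24 in the AAV control pairs. Without KA #1 or KA #2 neither gene was called, and without KA #3 Birc5, Cdca8 and Ube2c were. Ccnd1 moved the other way, with ratios of 1.29, 1.12 and 0.787 in the KA pairs. Mcm3 had 0.833, 1.2 and 0.514 in the KA pairs, below every AAV control pair.

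**Figure D4:**
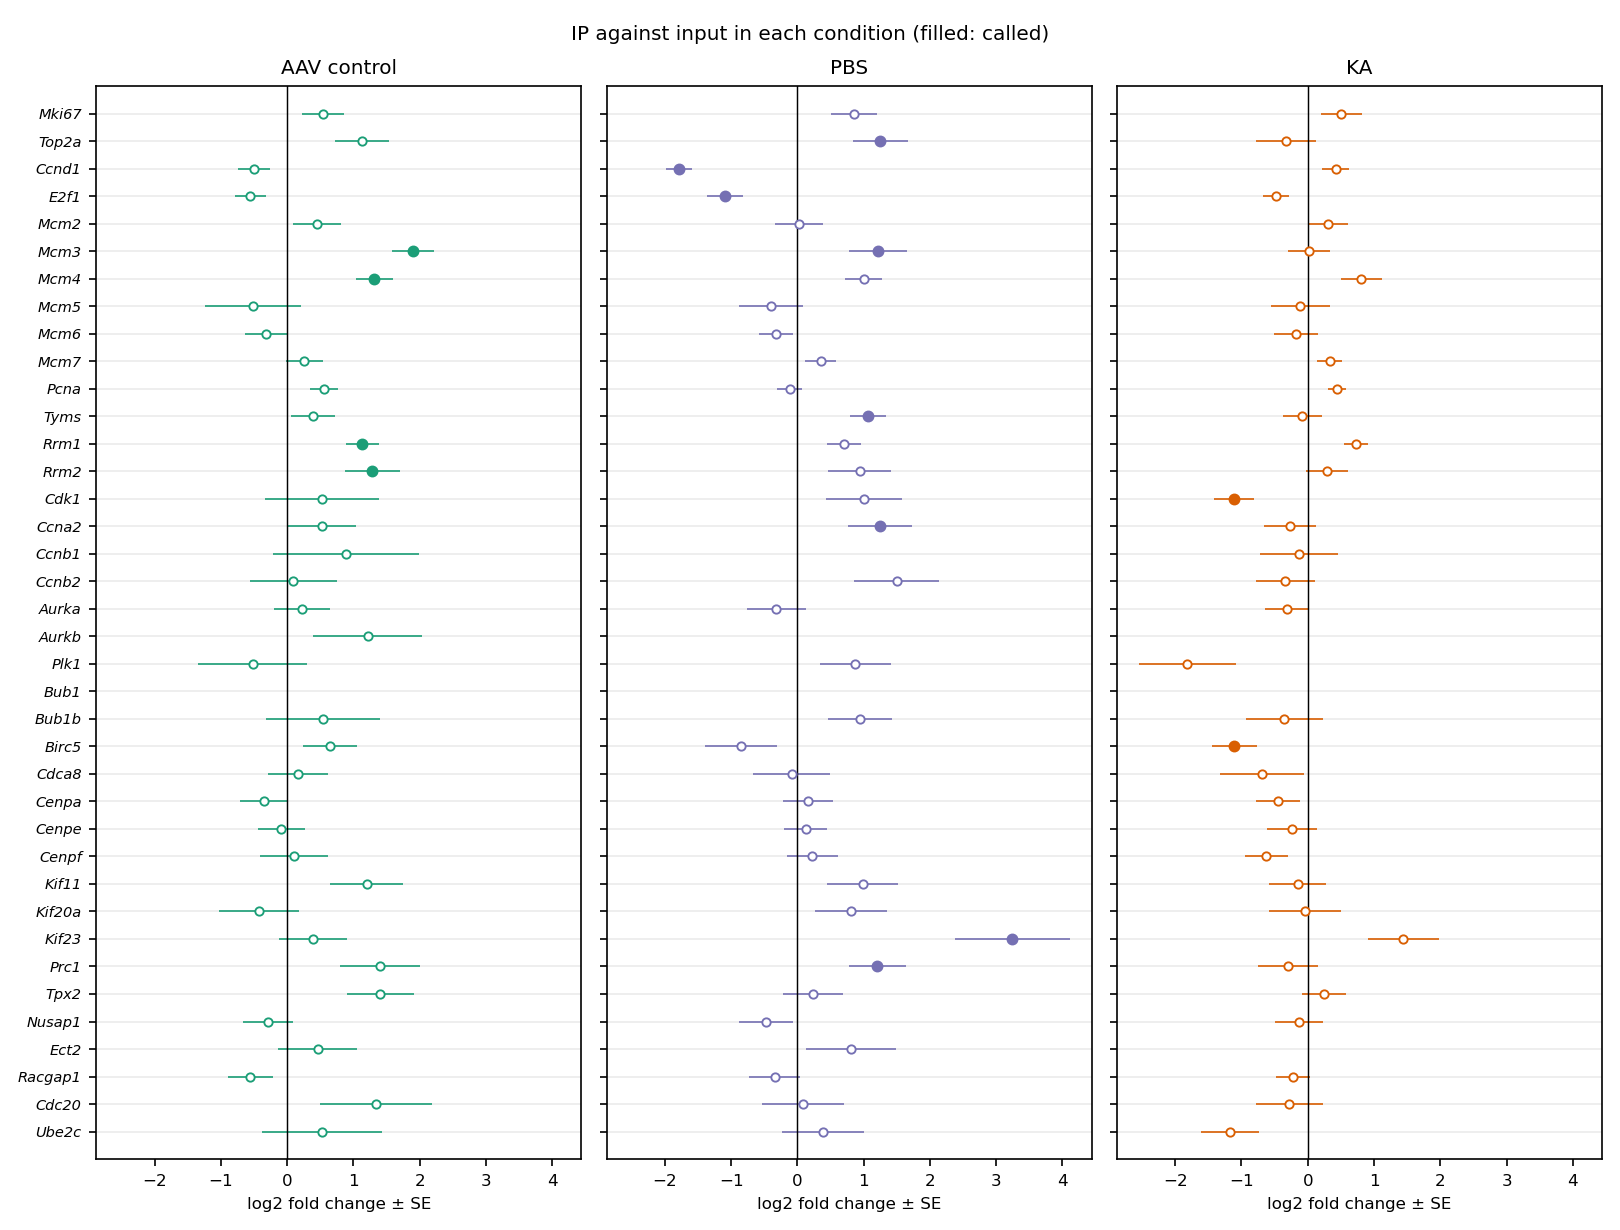
Log2 fold change of IP against input for the 38 members in the AAV control, PBS and KA groups, with SE bars from 3 samples per fraction. Filled points passed an adjusted p under 0.05 and at least 2-fold, and members without a point were not tested; in the KA group 24 of 35 points lie to the left of 0, and in the AAV control group 10 of 37.

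Without Ccnd1 and Pcna, whose levels exceed those of the other members, the remaining 36 members summed to 92.1 to 104 TMM-normalized CPM in the KA input libraries, 67.9 to 81.9 in AAV control input and 66 to 70.3 in PBS input, so the KA libraries did not overlap the controls. In IP they summed to 88 to 96 in KA, 87.1 to 116 in AAV control and 89.8 to 92 in PBS, which overlapped.

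Markers of cell types were followed in input as well, and some lists rose in KA while others did not. All 8 microglial markers rose in KA input against AAV control, with a median log2 fold change of 2.23. They summed to 529 to 626 TMM-normalized CPM in KA input, 83.5 to 171 in AAV control input and 116 to 123 in PBS input. None of the 8 was at 0 in any library. Of 7 leukocyte markers, 4 were tested in this comparison and 2 rose (Ms4a7 and Ptprc), and the list summed to 21.8 to 25.4 CPM in KA input, 2.9 to 7.36 in AAV control input and 3.55 to 6.33 in PBS input. Cd3g and Cd8a were at 0 in at least 1 AAV control input library and in at least 1 PBS input library. Of the 8 astrocyte markers 4 rose, and the list summed to 5580 to 5732 CPM in KA input and 2801 to 2843 in AAV control input. None of the 5 markers of oligodendrocyte precursors, 6 of endothelial cells, 5 of fibroblasts and meninges, or 6 tested markers of neural progenitors and immature neurons was called in input against AAV control. At an unadjusted p under 0.05 there were 1, 0, 1 and 1. Against PBS the fibroblast marker Col1a2 rose in input, with a log2 fold change of 1.09 (SE 0.22, adjusted p = 0.00312 from edgeR). Of the 5 markers in that list, 2 had an adjusted p under 0.05 against PBS. So did 1 of 5 precursor markers, 1 of 6 endothelial markers and 3 of 5 tested progenitor and immature neuron markers. Those in these other lists were under 2-fold. Median log2 fold changes against PBS were 0.39 for precursor, 0.57 for endothelial and 0.42 for progenitor and immature neuron markers. The 5 neuronal markers all had negative log2 fold changes in input, with a median of −0.52 against AAV control and −0.61 against PBS. None reached the call in edgeR, with 3 at an unadjusted p under 0.05 against AAV control, and 4 had an adjusted p under 0.05 against PBS at less than 2-fold. They summed to 3385 to 4099 CPM in KA input, 4411 to 6466 in AAV control input and 5298 to 6048 in PBS input, with KA below both control groups. The part of these cell types in the rise of the cell cycle genes was not tested.

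**Figure D5:**
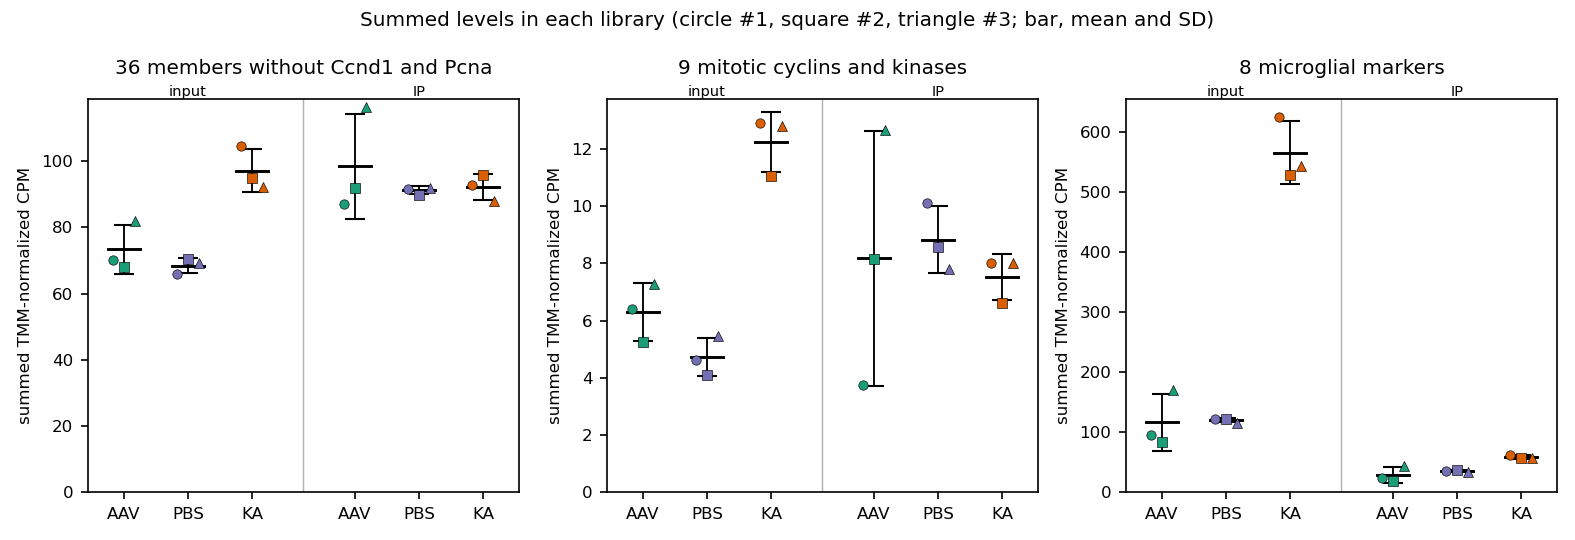
Summed TMM-normalized CPM in each library for the 36 members without Ccnd1 and Pcna, for the 9 mitotic cyclins and kinases, and for 8 microglial markers, in input (left of each panel) and IP (right). Circles, squares and triangles are samples #1, #2 and #3, and bars give the mean and SD; in input all 3 sums are higher in each KA library than in each control library, and the microglial sum in KA input is 529 to 626 CPM.

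In IP, 3 of 8 microglial markers rose in KA against AAV control (Aif1, Cd68 and Cx3cr1), and the list summed to 56.8 to 61.9 CPM in KA IP, 19.4 to 44.1 in AAV control IP and 33.4 to 36.7 in PBS IP. Ptprc was the 1 leukocyte marker tested in IP and rose. Of 5 markers of oligodendrocyte precursors, Cspg4, Gpr17 and Pdgfra fell in IP, and the median log2 fold change was −1.17. The other 2, Olig1 and Olig2, had positive log2 fold changes and were not called. The list summed to 196 to 321 CPM in KA IP and 204 to 218 in AAV control IP, so the sum did not follow the markers that fell. Among the markers of neural progenitors and immature neurons, Dcx fell, Neurod1 rose and Neurog2 was at 0 in all 3 KA IP libraries. Myelin markers rose in 2 of 5 cases and summed to 10320 to 15750 CPM in KA IP and 1340 to 6595 in AAV control IP, and neuronal markers rose in 3 of 5. Of the astrocyte markers Aqp4 and Gfap rose, and Gja1, Slc1a2 and Slc1a3 fell. All these calls were against AAV control, and some differed against PBS. There Aqp4 and Gfap rose and no astrocyte marker fell. All 5 myelin markers rose against PBS, as did 2 of 8 microglial markers (Aif1 and Cd68) and 2 of 5 neuronal markers. Of the precursor markers, Olig1 rose and Pdgfra fell, and the 1 tested leukocyte marker was not called. The part of these shifts in the IP values of the members was not tested.

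The wider pathway was followed in 87 further genes, in lists of G1 cyclins and kinases, CDK inhibitors, pocket proteins with E2F and DREAM subunits, origin licensing and the replication fork, mitotic checkpoint and condensin, and spindle and midbody. In input, 2 of 74 tested genes rose against AAV control, where 4.31% of all genes rose, with a median log2 fold change of 0.1. These were Cdkn1a, the inhibitor p21 that halts the cycle, with 1.74 (SE 0.17, adjusted p = 0.000541 from edgeR), and Kif2c, a kinesin that depolymerizes microtubules at centromeres, with 3.2 (SE 0.73, adjusted p = 0.034) on a mean of 5.67 counts. None fell, and by list the median was 0.96 for spindle and midbody genes (9 of 9 tested genes positive), 0.65 for CDK inhibitors and 0.01 for licensing and fork genes. Against PBS, where 7.86% of all genes rose, 9 of 71 did, with a median of 0.39.

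In IP against AAV control, 3 of 68 tested pathway genes rose, where 7.45% of all genes did, and 2 fell, where 4.84% did, with a median of −0.14. Those that rose were Anln, the contractile ring protein anillin, with 1.73 (SE 0.39, adjusted p = 0.0172 from edgeR), Ccne1, the cyclin E of S-phase entry, with 1.41 (SE 0.26, adjusted p = 0.00833), and Zwint, a kinetochore protein, with 1.08 (SE 0.24, adjusted p = 0.0161). Cdc25b, the phosphatase that activates Cdk1, fell by 1.61 on the log2 scale (SE 0.31, adjusted p = 0.00914), and the pocket protein Rbl1 fell by 1.5 (SE 0.37, adjusted p = 0.0265). Cdkn1a had a log2 fold change of 0.64 (SE 0.22, adjusted p = 0.0837) against AAV control and 1.4 (SE 0.22, adjusted p = 0.000282) against PBS. Against PBS 9 of 74 genes rose, where 10.8% of all genes did, and 5 fell, where 14.2% did, with a median of 0.04. Licensing and fork genes had a median of −0.36 in IP against AAV control, with 5 of 19 positive and none called.

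All 38 members are protein-coding and were located on GRCm38 with the GENCODE annotation. Cdk1 lies on chromosome 10 from 69335146 to 69352938, Birc5 on chromosome 11 from 117849251 to 117855743, Mcm3 on chromosome 1 from 20802968 to 20820312 and Ccnd1 on chromosome 7 from 144929931 to 144939925. Another annotated gene overlaps 17 of the members, and for 9 it is protein-coding, among them Ube2c (Tnnc2), Prc1 (Rccd1) and Mcm7 (Cops6 and Ap4m1). Their counts can include reads of the overlapping gene. How reads shared with processed pseudogenes were counted is not stated.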

How the data were processed

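RNA was measured in 18 libraries, an IP and an input library from each of 3 samples per group. Per the labels and the methods of the study, reads were aligned to mm10 with STAR, and featureCounts and edgeR are named in the submitters' processing notes, without versions. The authors deposited whole-number counts per gene symbol, without normalization, and FPKM. Totals ran from 7991681 to 16032180 counts, and the limit given for a count of 0 covers counting error only.

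Counts were tested with edgeR 4.0.16 in R 4.3.3 (quasi-likelihood test, TMM, genes with a mean of at least 5 counts over the compared libraries, Benjamini-Hochberg adjustment over all genes tested). A gene was called at an adjusted p under 0.05 and at least 2-fold. An SE is the size of the log2 fold change over the square root of F, and 95% confidence intervals use t quantiles of the fit. The filter of the study, FPKM above 1 in every library, was an alternative, since it leaves 4 or 5 members. Other alternatives were RLE size factors, DESeq2 1.42.0, limma voom 3.58.1, no filter, blocks, run, each library left out, and TMM-normalized CPM for FPKM. CPM sums used TMM over all 18 libraries. The scripts were tested on simulated data.

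Libraries of 1 group differed by 4.48 to 109 times counting noise per gene, so none was a duplicate. IP and input of 1 number share a homogenate. Numbers of KA and AAV control were also taken as pairs, since the residuals of same-numbered libraries correlated at 0.149 to 0.351. Samples pool mice, and the p-values measure the spread between pools.

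The members and the pathway and marker lists were chosen with earlier results of these data known. Values are given in every library for members called in a KA comparison and for Mki67, Top2a, Ccnd1 and Pcna, and for other pathway genes at most 5 per fraction and direction that were called against AAV control, and Cdkn1a. Members named otherwise were chosen after their values were seen. The value of 1 marker gene is not reported here.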

Additional observations from a re-analysis of the deposited data

Results flagged for a closer look

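For 5 members the interaction of treatment and fraction was called with 1 of the 2 control groups as the baseline (edgeR's quasi-likelihood test, adjusted over all genes). No member was called with both baselines, and a missing call does not show that the difference was absent with the other control group. Against AAV control, the log2 fold changes in input and IP were 0.75 and 1.65 for Ccnd1. They were 2.52 and 0.83 for Cdk1, and −0.31 and −0.8 for Tyms. Against PBS they were 1.44 and 0.2 for Mcm3. Input and IP thus differed in the same direction as in the calls of these members. Plk1 was not tested in IP against AAV control. With AAV control, no mitotic cyclin or kinase and no nucleotide supply gene had an unadjusted p under 0.05. With AAV control as the baseline, Mcm3 had an interaction of −1.89, with a log2 fold change of 1.23 in input and −0.67 in IP, neither of which was called. With PBS as the baseline, Cdk1 had −2.19, from 2.89 in input and 0.71 in IP. Ccnd1 had 2.14, from 0.47 in input and 2.62 in IP. Tyms had −1.22, from 0.05 in input and −1.17 in IP. Plk1 had −2.75, from 0.61 in input and −2.14 in IP, on 0 to 4 counts per library in KA IP. PBS was sequenced in a run of its own, and run and group cannot be told apart in the 4 values with PBS.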

How the results depend on the processing

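With low counts in most members, the number of calls depended on the filter, on the tool and on single libraries, and the causes were not tested. The shares of all genes called under these settings, blocks included, are not given here or above. Changes in the number of calls are therefore not read as results about the members. Against AAV control in input the 3 calls became 1 with limma voom, 5 without a filter, 5 with run as a covariate and 7 in run 1 only. The filter of FPKM above 1 in every library left 4 or 5 members to test, so it left 0 calls for KA in input against either control, 1 for KA against PBS in IP, 0 for IP against input in AAV control, 0 in KA and 1 in PBS, and 0 and 1 for the interactions with AAV control and PBS. Against AAV control in IP the 1 call became 2 without a filter (Aurkb, lower) and 2 in run 1 only. IP against input in KA gave 4 calls without a minimum fold change. The interaction with AAV control gave 2 calls with RLE size factors, 2 with DESeq2 and 3 in run 1 only, the last chosen after seeing the data.

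With single libraries left out, calls ranged from 0 to 6 for KA against AAV control in input, 3 to 7 against PBS in input, 1 to 2 against AAV control in IP, and 1 to 5 against PBS in IP. They ranged from 0 to 1 for PBS against AAV control in either fraction. For IP against input they ranged from 1 to 5 in AAV control, 5 to 7 in PBS and 0 to 3 in KA, and for the interactions from 0 to 1 with AAV control and 1 to 3 with PBS.

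With a replicate block, IP against input in AAV control rose to 7 calls, and the interactions to 2 with AAV control and 7 with PBS. KA against AAV control gave 4 calls in input and 1 in IP. KA and PBS shared only numbers, and the block gave 7 calls in input and 4 in IP, and 0 between PBS and AAV control. It gave 10 calls for IP against input in PBS and 3 in KA.

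Values near 0 in IP changed sign. Against AAV control, Top2a had −0.081 with limma voom, −0.069 with the replicate block and −0.067 with run as a covariate, and −0.22 to 0.43 with single libraries left out. Pcna had −0.045 with the FPKM filter and −0.047 to 0.11 with single libraries left out, and Mki67 had −0.16 to 0.34. Against PBS, Mki67 had −0.49 to 0.27 and Top2a −0.44 to 0.21. Of the other values of named members, 147 stayed on their side of the threshold when a library was left out and 83 lost the call. Under the other settings these numbers were 250 and 12. Both 147 and 250 include values that were not called in the main fit and so had no call to lose, such as those of Mki67 and Pcna. They are therefore not counts of calls that were kept.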
